A study of Papaver somniferum with 12 samples.

Results

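In the leaf transcriptome of opium poppy (Papaver somniferum), 189 of 61856 unigenes were found in the cultivar B2 and were at or near 0 in the cultivars T, Z and G. A unigene is a non-redundant transcript that the authors put together from long reads and used as the reference for counting. The 189 were chosen by their measured values, that is, by an RPKM of 1 or more in each of the 3 B2 libraries and below 0.1 in each of the 9 libraries of T, Z and G. RPKM scales reads by transcript length and by how many reads mapped in that library. The contrast between B2 and the other cultivars is therefore how these unigenes were found, and no test is given for it. They are called B2-only unigenes here, which refers to these 12 libraries.

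Leaves of all 4 cultivars were sampled at the filling stage, after flowering, when the capsule fills, and each cultivar had 3 independently collected samples. The labels name no treatment. All 4 are lines from directed breeding, and the study described B2 as a white-flowered, multi-branching and white-seeded plant, T and Z as white-flowered with purple spots, and G as pink-flowered with grey seeds. The reference unigenes came from another line, the original cultivar B1, in roots, stems and leaves, and B1 libraries were not analysed here. A transcript of T, Z or G with a different sequence can thus have a low value against this reference without a low RNA level, and these cannot be told apart in the table.

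Opium poppy makes benzylisoquinoline alkaloids, the group with morphine, codeine, noscapine and papaverine, and leaves hold part of these compounds. Bred lines of a plant can differ in which genes they carry, in which alleles of a gene they carry, in whether a gene is transcribed, and in how its transcript is spliced. Each of these can make a transcript detectable in 1 line and not in another, and a table of transcript levels does not separate them. The identifiers gave no gene names, since 0 of 61856 matched the reference table of 91581 opium poppy genes, and the functional annotation of the unigenes that the study describes was not used here. No function is therefore given for any B2-only unigene, and no leaf marker was checked. Sequences of the unigenes were not used here either, and unigenes are reported by identifier.

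The 12 libraries had similar totals, from 993016 to 1061092 summed RPKM. B2 replicate 3 stood apart. Across the 33161 unigenes that reached 1 RPKM in 3 or more libraries, the Pearson correlation of log2(RPKM + 1) was 0.975 for B2 replicates 1 and 2, 0.939 for 1 and 3 and 0.922 for 2 and 3, against 0.977 to 0.988 for pairs of libraries within T, Z or G. The main counts, the levels and the traces are therefore also given without it. In the quality values that the study lists, B2 replicate 3 had the lowest read quality and the lowest RNA integrity of the 12. Whether this bears on its lower correlations was not tested.

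The B2-only unigenes made up 0.306% of all unigenes. The same rule turned to the other cultivars found 1 unigene for T (0.00162%), 0 for Z (0%) and 1 for G (0.00162%). The reference came from B1 alone, so a transcript missing from it could not be counted for any cultivar. These counts therefore do not show how many transcripts each cultivar had to itself. PB.53971.1, the one of T, had 1.48, 2.06 and 1.84 RPKM in T and 0.05 RPKM in B2 replicate 3, and was listed at 0 in the other libraries. PB.54053.1, the one of G, had 2.42, 2.36 and 2.07 RPKM in G and was listed at 0 in all 9 others. Without B2 replicate 3 the rule found 232 unigenes for B2. It then found 8 for T, 0 for Z and 18 for G. Leaving out any 1 of the 12 libraries gave 190 to 232 for B2, and never more than 8 for T, 3 for Z or 18 for G. A library left out is a condition removed from the rule, so no count can be lower than with all 12.

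Presence was also read over all 4 cultivars, where a cultivar counted as having a unigene if each of its libraries reached 1 RPKM and as lacking it if each was below 0.1 RPKM. Under these limits 23546 unigenes were present in every cultivar and 9086 were absent from every one. Presence in B2 alone, with 189 unigenes of the B1 reference, was the most frequent of the patterns that differed between cultivars. It was followed by B2 and G without T and Z, with 32 unigenes, and by T, Z and G without B2, with 30. B2 shared 2 unigenes with T alone and 2 with Z alone. Without B2 replicate 3 there were 232 unigenes in B2 alone, 158 in T, Z and G without B2, 32 in B2 and G, 2 in B2 and T and 2 in B2 and Z. The 30 unigenes absent from B2 summed to 196 to 228 RPKM in the libraries of T, Z and G, where their median level was 4.4 RPKM and the highest mean 44.4 RPKM. Nothing in the table links one of these 30 to a B2-only unigene.

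It was then asked whether another unigene of the same locus was present in T, Z and G in place of a B2-only unigene. In an identifier such as PB.3874.9, the number between the dots was read as a locus number. The number after the second dot was read as one for the transcript within the locus. The study does not define these numbers. The 61856 unigenes carried 61856 different locus numbers, from 1 to 61856, and 0 locus numbers had more than 1 unigene. On this reading each locus is represented by 1 transcript in the table, and 0 of the 189 B2-only unigenes had a unigene of the same locus beside it. A change from one transcript of a locus to another cannot be seen in these data. The number after the second dot was 1 in 132 B2-only unigenes (69.8%) and in 70.6% of all unigenes. Among the 232 chosen without B2 replicate 3, it was 1 in 73.3%. The highest such number was 18 among the B2-only unigenes, in PB.2128.18, and 2622 among all unigenes.

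Neighbouring locus numbers were also described, although it is not known whether unigenes with neighbouring numbers are related. For 18820 pairs of tested unigenes with consecutive numbers, the mean log2(RPKM + 1) difference of B2 from the other cultivars had an r of 0.0038 between the neighbours. The smallest gap between the locus numbers of B2-only unigenes was 4. Of the 189, 122 (64.6%) had a locus number above 30928, the middle of the numbering, as had 59.2% of the unigenes at 1 RPKM or more in all B2 libraries. The sources used here do not say how the numbers were given, so no conclusion about related unigenes is drawn from these values.

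The B2-only unigenes were lowly to moderately expressed. Their mean over the 3 B2 libraries ran from 1.06 to 36.8 RPKM, with a median of 3.48 RPKM and quartiles of 2.1 and 6.66 RPKM. The 27209 unigenes at 1 RPKM or more in all B2 libraries had a median of 6.34 RPKM and quartiles of 2.88 and 17.9 RPKM. Without B2 replicate 3, the 232 chosen had a median of 3.09 RPKM over replicates 1 and 2, with quartiles of 1.83 and 5.84 RPKM, against a median of 5.78 RPKM over the 28800 unigenes present in both. The highest B2-only unigene ranked 3768 by its mean in B2, and 0 of the 189 were among the 100 most abundant unigenes over the 12 libraries.

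B2-only unigenes took a smaller share of the unigenes present in B2 at higher levels. They were 42 of 3631 at 1 to 2 RPKM (1.16%), 82 of 8079 at 2 to 5 RPKM (1.01%) and 39 of 5190 at 5 to 10 RPKM (0.751%). The shares were 0.517% at 10 to 15 RPKM (13 of 2513), 0.45% at 15 to 20 RPKM (7 of 1554) and 0.0961% at 20 RPKM or more (6 of 6242). The limit of absence was the same for unigenes of every level. A limit of 0.1 RPKM or of 1% of the lowest B2 value, whichever is higher, was chosen after seeing the data. It gave 195 unigenes, with 16 at 10 to 15 RPKM (0.637%), again 7 at 15 to 20 RPKM and 9 at 20 RPKM or more (0.144%). The classes below 10 RPKM could not change under it, since 1% of their lowest B2 value is under 0.1 RPKM. Whether the limits of absence bear on the falling share was not tested. Without B2 replicate 3 the shares ran from 1.41% at 1 to 2 RPKM (69 of 4907) to 0.0796% at 20 RPKM or more (5 of 6278), and each class was below the one before it.

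**Figure D1:**
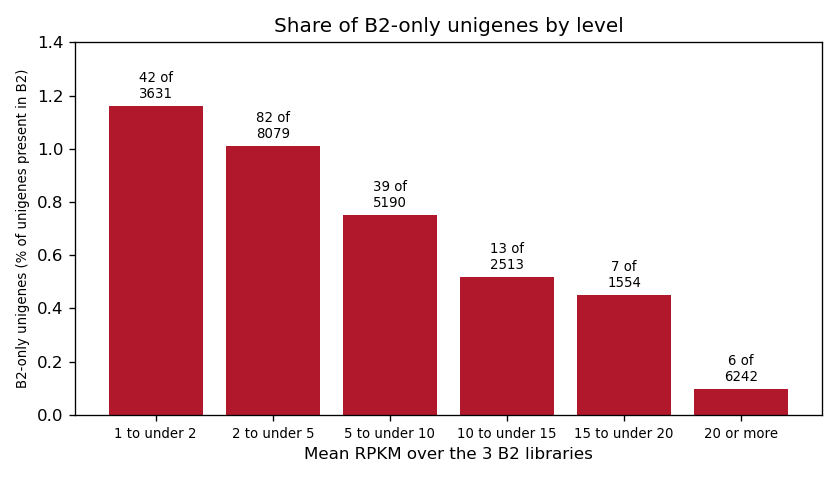
Bars show B2-only unigenes as a percentage of all unigenes with 1 RPKM or more in the 3 B2 libraries, by mean RPKM over these libraries, with the numbers above each bar. The share is 1.16% in the lowest class and 0.0961% in the highest.

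Together the 189 unigenes summed to 1049.9 RPKM in B2 replicate 1, 987.8 RPKM in replicate 2 and 1119.6 RPKM in replicate 3. This was 0.0989%, 0.0978% and 0.107% of the summed RPKM of these libraries. The median B2-only unigene had 3.46, 3.61 and 3.23 RPKM in replicates 1, 2 and 3. In the libraries of T, Z and G the same unigenes summed to 1 to 1.52 RPKM, which the rule keeps low. The 10 highest members held 22% of the B2-only total in replicate 1, 19% in replicate 2 and 26.6% in replicate 3.

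PB.61100.1 was the highest, with 44.94, 35.5 and 30.02 RPKM in B2 replicates 1, 2 and 3. Its value was 0 in each of the 9 libraries outside B2. PB.3874.9 followed with 40.88, 24.99 and 28.83 RPKM in B2. It had traces in 6 of the 9 other libraries, with 0.08, 0 and 0.09 RPKM in T, 0.04, 0.04 and 0 RPKM in Z and 0.02, 0.09 and 0 RPKM in G. PB.52595.4 had 33.6, 23.78 and 36.01 RPKM in B2, 0.05 RPKM in Z replicate 1 and 0.03 RPKM in G replicate 3. In these 3 unigenes the lowest B2 library was above 20 RPKM, and the libraries of B2 differed by 1.5 to 1.64 times.

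PB.54590.1 had 27.54, 21.92 and 28.05 RPKM in B2, and its only other value above 0 was 0.05 RPKM in T replicate 3. PB.53086.1 had 24.03, 22.84 and 16.85 RPKM in B2 and 0.04 RPKM in G replicate 1. PB.60934.1 had 15.74, 22.85 and 16.07 RPKM in B2 and was listed at 0 everywhere else. In these 3 the highest B2 library had at most 1.45 times the lowest. PB.2128.18 had 14.24, 15.77 and 26.66 RPKM in B2, with its highest value in replicate 3, and 0.03 RPKM in G replicate 3.

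In the remaining 3 of the 10 highest, B2 replicate 3 was more than 2 times above the mean of the other B2 libraries. PB.58287.2 had 15.46, 12.58 and 35.74 RPKM in B2 and 0.06 RPKM in G replicate 2. PB.30965.1 had 13.47, 6.04 and 33.47 RPKM in B2 and 0.09 RPKM in T replicate 1. PB.4759.2 had 1.38 and 1.18 RPKM in B2 replicates 1 and 2 and 45.82 RPKM in replicate 3, the highest value of any B2-only unigene in any library. Ranked by the mean of replicates 1 and 2, 6 of the 10 stayed among the 10 highest. The 4 that came in were PB.52906.1, PB.58933.3, PB.61714.1 and PB.50199.2, with means of 15.5 to 16.4 RPKM over these replicates.

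**Figure D2:**
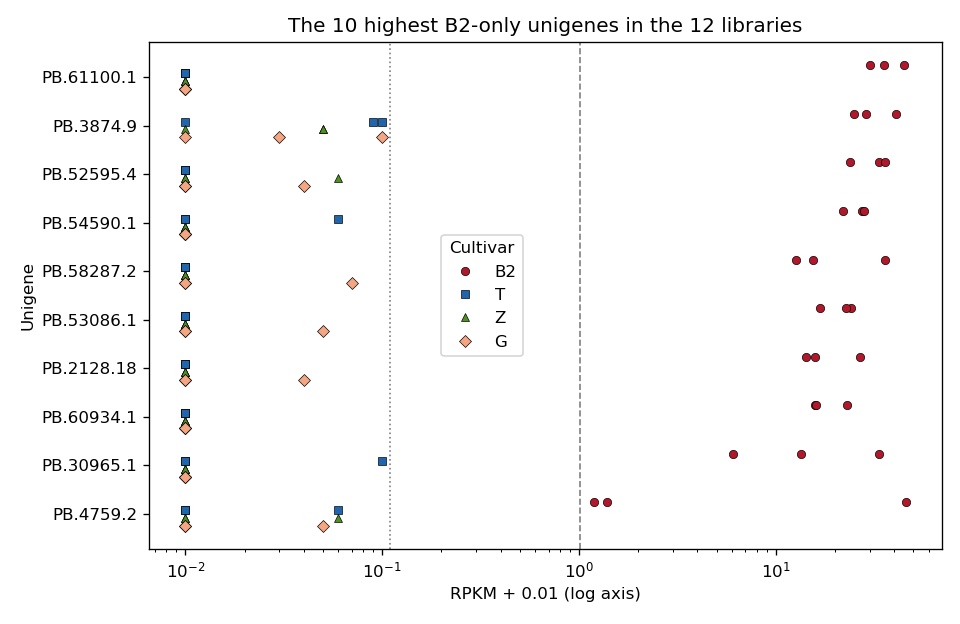
Points show the RPKM plus 0.01 of the 10 highest B2-only unigenes in each of the 12 libraries on a log axis, by cultivar. The dashed line marks 1 RPKM and the dotted line 0.1 RPKM. PB.61100.1 is highest by mean, and PB.4759.2 spans 1.18 to 45.82 RPKM over the B2 libraries.

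Outside B2 the values were either 0 or traces, which the rule required. Of the 1701 values of the 189 unigenes in T, Z and G, 305 (17.9%) were above 0, and the highest was 0.09 RPKM. In all 9 libraries 80 unigenes were listed at 0, and 109 were above 0 in at least 1. Of the latter, 42 were above 0 in 1 library, 21 in 2 and 20 in 3, whereas 22 were above 0 in at least 5. Members listed at 0 throughout had a median B2 level of 3.35 RPKM and those with a trace 3.62 RPKM. Of the 232 chosen without B2 replicate 3, 102 were listed at 0 in all 9 libraries, 28 were above 0 in at least 5, and 18% of the values were above 0. Trace counts for other unigenes below 0.1 RPKM in these 9 libraries are not given. The traces are thus not shown to be particular to the B2-only unigenes.

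The traces were spread over the other cultivars. At least 1 library above 0 was found for 63 unigenes in T, 67 in Z and 68 in G, and single libraries had 29 to 39 unigenes above 0. Of the 109 unigenes with a trace, 50 had it in 1 of the cultivars T, Z and G, 29 in 2 and 30 in all 3. PB.1740.9, PB.12957.1 and PB.5511.1 were above 0 in all 9 libraries. PB.1740.9 had 4.79, 4.09 and 3.08 RPKM in B2 against 0.02 to 0.09 RPKM in the others. PB.12957.1 had 1.75, 1.39 and 1.81 RPKM in B2 against 0.02 to 0.08 RPKM. PB.5511.1 had 1.29, 1.56 and 1.39 RPKM in B2 against 0.01 to 0.05 RPKM. Among the 109, the lowest B2 value was 13.4 to 682 times the highest value outside B2, with a median of 68.5 times, where the rule itself sets a least ratio of about 10. The reads behind each value are not known, so a value of 0 cannot be told from a trace too small to be sampled.

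**Figure D3:**
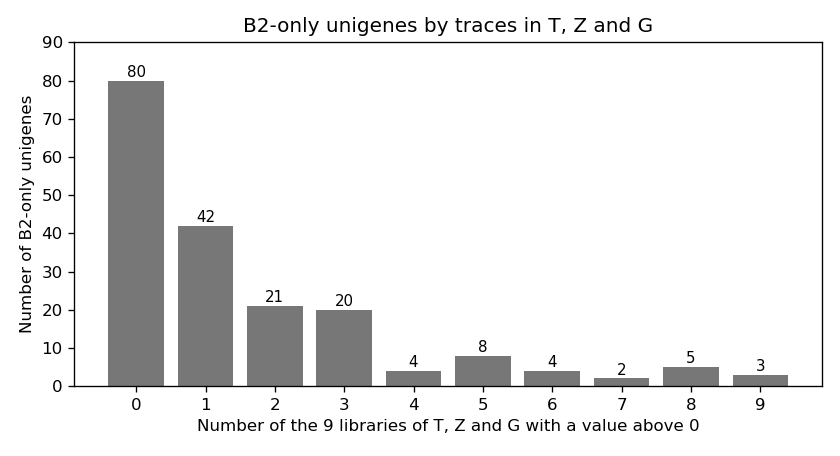
Bars count the 189 B2-only unigenes by the number of the 9 libraries of T, Z and G in which they had a value above 0. The tallest bar is the 80 unigenes listed at 0 in all 9, and 3 unigenes were above 0 in all 9.

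The rule put no upper limit on the B2 libraries, so their agreement above 1 RPKM could be described. The highest of the 3 B2 values was at most 2 times the lowest in 153 B2-only unigenes (81%) and at most 1.5 times in 112. Over all 27209 unigenes present in B2, 83.5% stayed within 2 times, and their share within 1.5 times is not given. The median standard deviation of log2(RPKM + 1) over the B2 libraries was 0.207 for the B2-only unigenes and 0.205 for all unigenes present in B2. Both groups had to reach 1 RPKM in all 3 B2 libraries, which removes unigenes that fall below it in any of them. The groups were not matched for level, with median B2 means of 3.48 RPKM for the B2-only unigenes and 6.34 RPKM for all present. Their similar agreement is thus a description within these limits.

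Among the 26 B2-only unigenes with a mean of at least 10 RPKM, the closest agreement was in PB.24928.1, with 12.13, 12.26 and 12.24 RPKM in B2 replicates 1, 2 and 3. PB.50188.2 had 11.31, 11.01 and 11.12 RPKM, and PB.22902.2 had 13.65, 14.36 and 14.54 RPKM. The widest spread was in PB.4759.2, described above, followed by PB.58872.1 with 4.26, 1.18 and 26.69 RPKM and by PB.58933.3 with 17.91, 14.87 and 2.04 RPKM. In PB.58872.1 replicate 3 was the highest library, and in PB.58933.3 it was the lowest.

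Most of the wide spreads involved B2 replicate 3. Between replicates 1 and 2, 8 of the 189 unigenes (4.23%) differed by more than 2 times, against 22 (11.6%) between 1 and 3 and 25 (13.2%) between 2 and 3. The same shares over all unigenes present in B2 were 3.92%, 9% and 12.8%. Replicate 3 was more than 2 times above the mean of the others in 10 B2-only unigenes and under 0.5 times this mean in 8. The median ratio of replicate 3 to this mean was 0.98. The ratio of the highest to the lowest B2 value was over 4 in 7 unigenes, namely PB.4759.2, PB.58872.1, PB.56654.1, PB.58933.3, PB.7427.1, PB.30965.1 and PB.61630.1. In each of these 7, replicate 3 was either the highest or the lowest. For the counts of 10, 8 and 7, the shares over all unigenes present in B2 are not given. Replicate 3 also stood apart over all tested unigenes, so these counts do not show a trait of the B2-only unigenes. PB.56654.1 had 1.09, 1.45 and 11.39 RPKM, and PB.7427.1 had 11.78, 10.48 and 1.79 RPKM.

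Over the 189 unigenes, the Pearson r between log2(RPKM + 1) values was 0.935 between B2 replicates 1 and 2, 0.786 between 1 and 3 and 0.743 between 2 and 3. Spearman's rho was 0.918, 0.771 and 0.751. These are across unigenes of shared libraries and not across independent samples, and no p-value is given. Over all unigenes present in B2 the r was 0.976, 0.954 and 0.938 for the same pairs, over a wider range of levels.

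**Figure D4:**
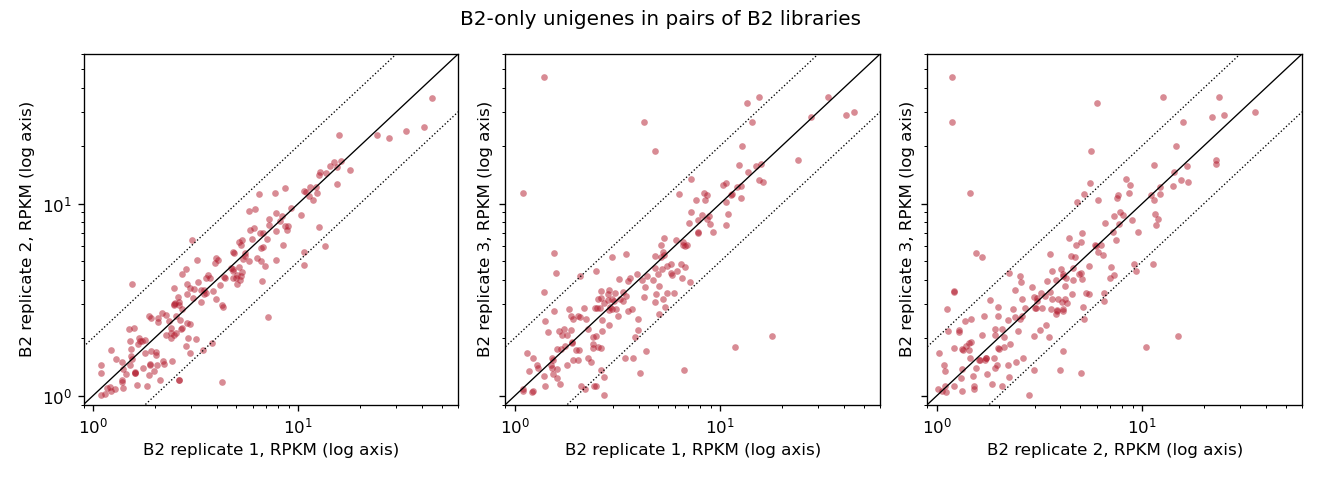
Each point is 1 of the 189 B2-only unigenes, with its RPKM in 2 B2 libraries on log axes. The solid line marks equal values and the dotted lines a 2-fold difference, beyond which lie 8 unigenes for replicates 1 and 2, 22 for 1 and 3, and 25 for 2 and 3.

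Whether the pattern held in a library that had no part in the choice was examined by leaving out each library in turn. The unigenes that kept the pattern are the same 189 each time. They were set against the other unigenes with 1 RPKM or more in the same pair of B2 libraries, whatever their level in T, Z and G. Chosen without B2 replicate 1 were 197 unigenes, of which 95.9% were at 1 RPKM or more in it, against 97.6% of the others. Chosen without replicate 2 were 206, of which 91.7% were at 1 RPKM or more in it, against 96.5%. Chosen without replicate 3 were 232, of which 81.5% were at 1 RPKM or more in it, against 94.6%. The share was below that of other unigenes for each of the 3 libraries, with the widest gap for replicate 3, and no test was applied. The groups were not matched for level. Those chosen without replicate 3 had a median of 3.09 RPKM over replicates 1 and 2, nearer the limit of presence than the 5.78 RPKM of all unigenes present in both. Of the 43 chosen without replicate 3 that were under 1 RPKM in it, 17 lay between 0.1 and 1 RPKM and 26 below 0.1 RPKM, and 21 were listed at 0 in it.

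The absence outside B2 was examined in the same way. Chosen without 1 library of T, Z or G were 190 to 198 unigenes, and 95.5% to 99.5% of them were below 0.1 RPKM in the library left out. Of the other unigenes below 0.1 RPKM in the same 8 libraries, 97.4% to 98.4% were. Most of these other unigenes, 9086, were below 0.1 RPKM in every library of the 4 cultivars. In 8 of these 9 libraries the chosen unigenes that were not below 0.1 RPKM stayed under 1 RPKM. The exception was G replicate 2, in which 2 unigenes were at 1 RPKM or more. PB.42040.1 had 1.23 RPKM in it and 1.97, 1.36 and 1.76 RPKM in B2. PB.47718.1 had 2.24 RPKM in it and 2.39, 2.16 and 3.99 RPKM in B2. Both were at most 0.08 RPKM in the other libraries of T, Z and G.

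Unigenes found in only some of the B2 libraries were set beside the 189. Among unigenes below 0.1 RPKM in all of T, Z and G, 139 were at 1 RPKM or more in B2 replicate 3 and below 0.1 RPKM in replicates 1 and 2. Another 26 were at 1 RPKM or more in replicates 1 and 2 and below 0.1 RPKM in replicate 3. The other patterns were rare, with 2 unigenes in replicates 1 and 3, 3 in replicates 2 and 3, 1 in replicate 1 alone and 0 in replicate 2 alone. In the 9 libraries of T, Z and G, from 0 to 7 unigenes were present in that library alone.

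The 139 unigenes of B2 replicate 3 alone had a median of 2.81 RPKM in it and reached 84.69 RPKM in PB.61335.1, which was listed at 0 in the 11 others. The 26 of replicates 1 and 2 had a median of 2.6 RPKM, and the highest was PB.9657.2 with 14.21 and 17.8 RPKM, against 0.04 RPKM in replicate 3 and at most 0.08 RPKM in T, Z and G. PB.19278.1 and PB.60646.1 were absent from replicate 2, with 4.08 and 1.99 RPKM and with 1.06 and 2.19 RPKM in replicates 1 and 3. PB.34546.1, PB.42403.1 and PB.47425.1 were absent from replicate 1, with 1.05 and 1.05, 2.37 and 7.09, and 3.87 and 5.63 RPKM in replicates 2 and 3. PB.7274.4, with 2.12 RPKM, was the one of replicate 1 alone.

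**Figure D5:**
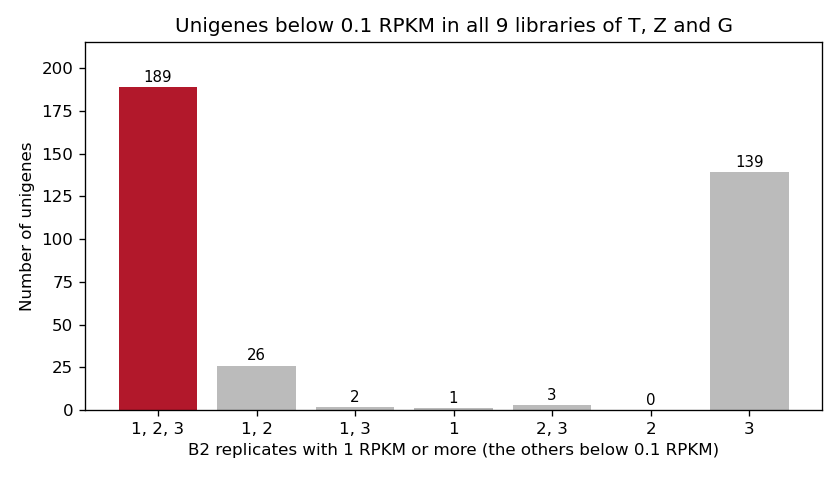
Bars count the unigenes below 0.1 RPKM in all 9 libraries of T, Z and G by the B2 replicates in which they had 1 RPKM or more, the remaining B2 replicates being below 0.1 RPKM. The 189 B2-only unigenes are the first bar, and the 139 present in replicate 3 alone are the last.

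The values at the edges of the rule were as follows. Just inside the limit of presence were PB.34805.1 with 2.72, 2.82 and 1.01 RPKM in the B2 replicates, PB.42171.1 with 1.09, 1.01 and 1.09 RPKM and PB.54426.1 with 1.14, 1.02 and 1.67 RPKM, all listed at 0 outside it. Just outside were PB.7153.2 with a lowest B2 value of 0.99 RPKM, PB.23586.2 with 0.98 RPKM and PB.26662.1 with 0.96 RPKM. The lowest B2 value was under 1.1 RPKM in 9 members, and it was from 0.9 to 1 RPKM in 10 unigenes that otherwise met the rule.

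The limit of absence was met at 0.09 RPKM by 15 members. Among them PB.58369.2, PB.32143.1 and PB.42186.1 had B2 values of 1.21 to 3.48 RPKM, and PB.32143.1 was above 0 in 8 of the 9 other libraries. Just outside, at 0.1 RPKM in 1 library, lay PB.59433.1 with 15.19, 15.11 and 14.69 RPKM in B2, PB.38484.1 with 13.44, 13.02 and 12.45 RPKM and PB.58357.1 with 8.87, 7.89 and 7.85 RPKM. In all, 166 unigenes present in B2 had their highest value outside B2 between 0.1 and 0.5 RPKM, and 37 of these reached 0.1 RPKM in 1 of the 9 libraries. The most abundant of these near misses stood above every member. PB.57304.6 had 76.25, 57.86 and 303.27 RPKM in B2 and missed the limit with 0.14 RPKM in T replicate 3. PB.58308.2 had 114.11, 92.99 and 120.75 RPKM in B2 and up to 0.45 RPKM in G replicate 2, and PB.21710.2 had 93.13, 129.13 and 32.69 RPKM in B2 and up to 0.47 RPKM in the same library.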

How the data were processed

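RNA was sequenced from leaves of 4 opium poppy cultivars, with 3 libraries each. Per the labels and the methods of the study, the authors filtered paired-end reads, mapped them with HISAT2 2.05 onto long-read unigenes of cultivar B1 and estimated levels with RSEM, and no genome was used. The authors deposited RPKM values with 2 decimals, which the methods call by a fragment-based name. RSEM divides reads among similar unigenes, so values of near-identical unigenes are uncertain. Read numbers per value are not known, so no counting interval or floor is given. Groups came from the sample titles.

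The selection limits, libraries left out and median-ratio scaling were computed with Python 3.11.15, numpy 2.4.6, pandas 2.3.3 and scipy 1.17.1, and figures with matplotlib 3.10.9. The selection step was run on simulated data with planted members, in which no other unigene came near the limit of absence. This checks the code and not the choice of members in the real data. Log values used a pseudocount of 1. Planned tests on other unigenes of the same locus number could not be run, since every locus number occurs once, and no other test was made, because the choice of members used the contrast of B2 with T, Z and G. Unigenes named are the 10 highest, those with the closest and widest B2 agreement among members with a mean of at least 10 RPKM, and 3 on each side of each limit. All others named were chosen after their values were seen. The members and the lists were chosen with earlier results of these data known.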

Additional observations from a re-analysis of the deposited data

How the results depend on the processing

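The number of B2-only unigenes followed the limits that define it. It was 117 with presence at 2 RPKM, 355 with absence below 0.5 RPKM and 80 when a listing at 0 was required in the 9 other libraries. These are by construction stricter or wider rules. Presence at 0.5 RPKM gave 255, absence below 0.1 RPKM or below 1% of the lowest B2 value, a limit added after seeing the data, gave 195, and median-ratio scaling of the libraries gave 193, of which 184 were among the 189. With 1 library left out the number ran from 190, without G replicate 3, to 232, without B2 replicate 3. A library left out is a condition removed, so this number cannot fall below 189. Presence at 0.5 RPKM and the limit of 1% are also wider rules by construction. The question of a second unigene of the same locus has 1 possible answer under every setting, since every locus number occurs once. No paired analysis was possible because no result here comes from a test, the planned ones having had no unigenes to be run on. The unknown read numbers limit what a listed 0 or a value under 0.1 RPKM can show.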
